A study of Mus musculus with 61 samples.

Results

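The genes of the CD3 chains (Cd3d, Cd3e, Cd3g and Cd247), the coreceptors (Cd4, Cd8a and Cd8b1) and the first signaling proteins downstream of the T cell receptor (Lck, Zap70 and Lat) were examined in 61 mouse RNA-seq libraries of a study of STAT5B missense mutations. These 10 genes were picked by symbol as parts of the receptor complex, out of 24421 genes in each file, and all 10 passed the filter of at least 10 reads over the libraries of every fit. The labels give the strain C57BL/6 and an age of 2 months for all libraries, and the mutant mice were made on C57BL/6N. Spleens gave 4 wild-type (WT), 5 Stat5b Y665H and 7 Stat5b Y665F libraries. In these mice 1 tyrosine of STAT5B is changed to histidine or phenylalanine in the germ line, so every cell of the animal carries the change. Splenic T cells, enriched from such mice by removing the other cells, were kept in culture for 24 h with IL-2 and IL-7 (4 libraries for each of the 3 genotypes). For Y665F alone, 3 libraries of splenic T cells without interleukins were also made, for which the labels name no culture. Naive CD4+ T cells sorted from spleens and lymph nodes were activated through the receptor and CD28, transduced with a retroviral vector and kept for 48 h with IL-2 before the transduced CD4+ cells were sorted again. They came from WT mice or from mice in which Cd4-Cre had removed floxed Stat5a and Stat5b (Stat5a/b-null), and each background had 3 libraries for each of 5 vectors, which were empty or carried STAT5B, N642H, Y665F or Y665H. The genotype entry of all 30 CD4+ libraries names the floxed alleles, those titled as WT included, so that their background rests on the titles. Cd4-Cre acts in developing T cells, which pass through a stage with both CD4 and CD8, and the vector is expressed from its own promoter and on top of the endogenous gene in WT cells.

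The T cell receptor binds peptide on MHC molecules but has no signaling tail of its own. It relies on the CD3γ, CD3δ and CD3ε chains and on the ζ chain encoded by Cd247, whose cytoplasmic motifs are phosphorylated by LCK once CD4 or CD8 has brought this kinase to the complex. ZAP70 then docks on the phosphorylated motifs and phosphorylates the adaptor LAT, on which the downstream signaling proteins assemble. In spleen Cd3d, Cd3e and Cd3g mark αβ and γδ T cells, whereas Cd247, Lck, Zap70 and Lat are not taken here as markers of T cells alone. Cd8a is also made by a class of dendritic cells, as CD8α homodimers, whereas Cd8b1 is largely restricted to CD8 T cells, and Cd4 is found in helper and regulatory T cells and at lower levels in some dendritic cells and macrophages. STAT5 is activated by IL-2, IL-7 and related cytokines, which keep T cells alive and drive the expansion of activated and memory CD8 T cells.

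The annotation of the mouse genome build GRCm38 places 3 of the CD3 genes side by side on chromosome 9. Cd3g lies at chr9:44969572-44980431 on the minus strand and Cd3d at chr9:44981786-44987339 on the plus strand, so that both are read outward from a gap of 1354 bases. Cd3e follows at chr9:44998740-45009627 on the minus strand, 11400 bases beyond Cd3d. Cd247 is at chr1:165788681-165877277 and Zap70 at chr1:36761798-36782818. Cd8b1 at chr6:71322788-71337494 and Cd8a at chr6:71373427-71379173 are neighbours with 35.9 kb between them, and Cd4 is at chr6:124864692-124888221 on the same chromosome. Lck is at chr4:129548344-129573641 and Lat at chr7:126363824-126369570. Whether strand was used in counting is not given in the sources used here. Cd247 overlaps 5 annotated genes on the opposite strand, Cd3e overlaps 1 and Zap70 overlaps 1, and if strand was not used their reads could not be told apart.

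RefSeq promoter windows (GRCm38.p6) were at hand for 8 of the 10 genes, in 11 windows, and were used for the 250 bases before the annotated start. The windows of Cd3g, Cd3d, Cd3e and Cd8a are shown because these CD3 genes lie together and moved the same way in spleen, and because Cd8a fell further than they did in Y665H spleens. Capitals mark matches to 3 sets of letters that were searched on both strands, TTCNNNGAA as the core of the sites bound by STAT proteins, TGTGGT as that of RUNX sites and GGAAGT as that of ETS sites. Each window reads 5′ to 3′ along the strand of its gene and ends at the base before the start.

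Cd3g, chr9:44980432-44980681, minus strand: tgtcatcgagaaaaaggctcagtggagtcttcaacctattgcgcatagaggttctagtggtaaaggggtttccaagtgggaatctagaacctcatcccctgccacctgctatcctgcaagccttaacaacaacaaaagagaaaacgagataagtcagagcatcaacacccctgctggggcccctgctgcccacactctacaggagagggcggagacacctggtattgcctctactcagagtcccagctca

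Cd3d, chr9:44981536-44981785, plus strand: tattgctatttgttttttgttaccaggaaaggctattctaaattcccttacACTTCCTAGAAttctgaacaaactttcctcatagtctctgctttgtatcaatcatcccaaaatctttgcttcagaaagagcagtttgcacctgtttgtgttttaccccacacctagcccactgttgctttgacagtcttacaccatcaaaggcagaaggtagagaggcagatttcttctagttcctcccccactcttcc

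Cd3e, chr9:45009612-45009861, minus strand: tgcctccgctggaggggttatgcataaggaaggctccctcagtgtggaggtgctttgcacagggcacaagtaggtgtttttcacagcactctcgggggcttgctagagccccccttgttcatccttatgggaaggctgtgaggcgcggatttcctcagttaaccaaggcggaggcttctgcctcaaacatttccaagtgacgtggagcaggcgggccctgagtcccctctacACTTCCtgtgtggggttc

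Cd8a, chr6:71373177-71373426, plus strand: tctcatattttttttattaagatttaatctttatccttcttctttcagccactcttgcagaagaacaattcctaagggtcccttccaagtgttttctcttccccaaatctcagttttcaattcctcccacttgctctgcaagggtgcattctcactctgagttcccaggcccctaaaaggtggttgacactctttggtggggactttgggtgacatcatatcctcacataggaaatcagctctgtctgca

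TTCNNNGAA occurred in 1 of the 11 windows, at Cd3d, where TTCCTAGAA began 197 bases before the start and overlapped a match to GGAAGT on the other strand. This pattern occurred in 7.02% of 32851 promoter windows of this length. TGTGGT was found in 2 of the 11 windows, of Lck and Zap70, against 14% of all windows. GGAAGT was found in 6 windows of 5 genes, against 19.7% of all windows. The windows of Cd3g, Cd8a and Lat and 2 of the 3 windows of Zap70 held none of these letters. A match describes the sequence and not the binding of a factor.

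Each spleen library held between 24203179 and 43330536 reads on genes and each CD4+ library between 18825994 and 49850689, whereas the splenic T cell libraries were shallower, at 2017012 to 27394249 reads. Levels are given in CPM, the customary scaling of counts to the library's total on genes, here after TMM normalization, and differences as log2 fold changes. "Passed" stands for an adjusted p under 0.05 by the quasi-likelihood test of edgeR, with p-values adjusted after Benjamini and Hochberg over all genes of the fit, and "called" for a log2 fold change beyond 1 in addition. The labels do not say which libraries of a group came from the same animal, and the p-values measure the spread between libraries. The spleen libraries held B cell transcripts at summed levels of 1958 to 3002 CPM over 6 marker genes, against 10.04 to 660.3 CPM in the splenic T cells, so that they are described here as spleens, although the study's texts name their material in more than 1 way. Y665H spleen replicate 1 stood apart from the other 4 of its group, with summed erythroid markers of 760.5 CPM against 3572 to 5090 CPM and summed neutrophil markers of 95.2 CPM against 306 to 1217 CPM.

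In spleen, the CD3 genes were lower in Y665H mice and higher in Y665F mice than in WT mice. Cd3e, the ε chain, had levels of 40.3, 55.3, 41.3 and 44.7 CPM in WT spleens and of 40.1, 24.7, 26.2, 30.04 and 27.7 CPM in Y665H spleens. In the 7 Y665F spleens the lowest, median and highest levels were 75.9, 79.3 and 89.5 CPM. All 3 groups were separate, although the highest Y665H library, replicate 1, lay just under the lowest WT library. Cd3e rose by 0.83 ± 0.12 (SE) on the log2 scale in Y665F spleens (adjusted p = 0.000319) and fell by 0.61 ± 0.12 in Y665H spleens (adjusted p = 0.00281). In a whole tissue, more or fewer T cells and more or less of a transcript per cell cannot be told apart.

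Cd3d, the δ chain, went the same way. Its levels were 37.2, 41.6, 35.6 and 43.3 CPM in WT spleens and 36.6, 27.3, 24.5, 25.9 and 24.7 CPM in Y665H spleens, and the Y665F spleens had a median of 64.9 CPM between 47.3 and 69.5 CPM. Only Y665H replicate 1 reached the WT range. Cd3d rose by 0.60 ± 0.13 (SE) in Y665F spleens (adjusted p = 0.00619) and fell by 0.50 ± 0.14 in Y665H spleens (adjusted p = 0.0140), a fall that missed the threshold without WT replicate 2 (adjusted p = 0.0590).

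Cd3g and Cd247 fell in Y665H spleens but did not pass in Y665F spleens. Cd3g, the γ chain, had levels of 64.1 to 80.1 CPM in WT, 42.5 to 57.7 CPM in Y665H and 67.5 to 115 CPM in Y665F spleens. The Y665H libraries lay below all WT libraries (log2 fold change −0.63 ± 0.13 (SE), adjusted p = 0.00344). Against WT, the Y665F libraries gave 0.37 ± 0.12 with an adjusted p of 0.0587, which passed without Y665F replicate 2 or 3. Cd247 had 43.0 to 52.3 CPM in WT, 27.7 to 44.7 CPM in Y665H and 42.2 to 76.0 CPM in Y665F spleens. It differed from WT by −0.50 ± 0.16 in Y665H spleens (adjusted p = 0.0322), which passed in 3 of the 9 fits without 1 library, and by 0.40 ± 0.15 in Y665F spleens (adjusted p = 0.0898), which passed without Y665F replicate 2.

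**Figure D1:**
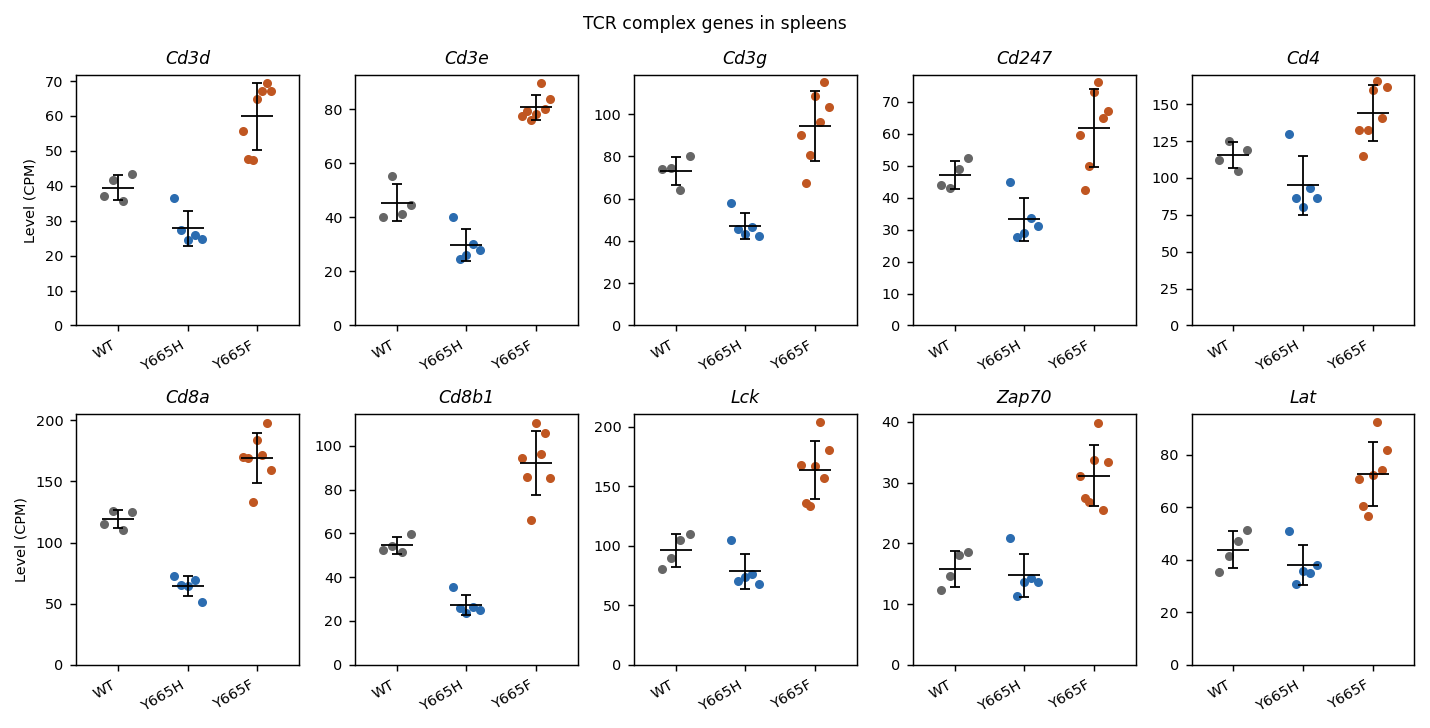
Levels of the 10 genes in CPM in each spleen library (points), with the mean and SD of each genotype in black (4 WT, 5 Y665H and 7 Y665F libraries). Y665F libraries of Cd3e, Cd8b1 and Lck lie above all WT libraries, and Y665H libraries of Cd8a and Cd8b1 lie below them.

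The CD8 genes showed the lowest levels relative to WT in Y665H spleens, while Cd4 did not pass in either mutant. Cd8a was at 115, 126, 111 and 125 CPM in WT spleens and at 72.2, 65.5, 64.2, 69.3 and 51.3 CPM in Y665H spleens. The Y665F spleens ranged from 133 over a median of 169.8 to 198 CPM. No library of one genotype reached the range of another. Cd8a fell by 0.89 ± 0.10 (SE) in Y665H spleens (adjusted p = 0.000392) and rose by 0.50 ± 0.10 in Y665F spleens (adjusted p = 0.00356).

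Cd8b1, which with Cd8a forms the coreceptor of conventional CD8 T cells, was at 52.5, 54.1, 51.5 and 59.8 CPM in WT spleens. Its levels were 35.3, 26.0, 23.6, 26.2 and 25.1 CPM in Y665H spleens, and in Y665F spleens they had a median of 94.3 CPM between 66.2 and 110.2 CPM. The 3 genotypes again did not overlap. Cd8b1 fell by 1.00 ± 0.13 (SE) in Y665H spleens (adjusted p = 0.000654) and rose by 0.76 ± 0.12 in Y665F spleens (adjusted p = 0.00116).

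Cd4 was at 112, 125, 105 and 119 CPM in WT spleens and at 129.7, 86.4, 80.0, 93.3 and 86.2 CPM in Y665H spleens, where replicate 1 lay above all WT libraries and the other 4 below them. The Y665F spleens ranged from 115 over a median of 140.4 to 166 CPM. The log2 fold changes over WT were −0.28 ± 0.13 (SE) for Y665H (adjusted p = 0.139) and 0.32 ± 0.12 for Y665F (adjusted p = 0.0938). Without Y665H replicate 1 the former was −0.38 ± 0.10 and passed (adjusted p = 0.00853), and without Y665F replicate 2 the latter passed.

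The kinases and the adaptor rose in Y665F spleens and did not pass in Y665H spleens. Lck, the kinase carried by CD4 and CD8, was at 80.1, 89.5, 105 and 110.2 CPM in WT, at 67.7 to 105 CPM in Y665H and at 133 to 204 CPM in Y665F spleens. Zap70 was at 12.3, 14.5, 18.1 and 18.5 CPM in WT, at 11.3 to 20.8 CPM in Y665H and at 25.5 to 39.9 CPM in Y665F spleens, which made it the most increased of the 10 genes over WT at 0.97 ± 0.16 (SE, adjusted p = 0.00119). Lat was at 35.5 to 51.3 CPM in WT, at 30.9 to 51.0 CPM in Y665H and at 56.9 to 92.6 CPM in Y665F spleens. For all 3 genes the Y665F libraries lay above every WT library and every Y665H library. Lck rose by 0.77 ± 0.13 (adjusted p = 0.00163) and Lat by 0.73 ± 0.14 (adjusted p = 0.00382) in Y665F spleens. In Y665H spleens the log2 fold changes were −0.29 ± 0.14 for Lck, −0.11 ± 0.17 for Zap70 and −0.20 ± 0.15 for Lat, with adjusted p between 0.149 and 0.703, and Lck passed without Y665H replicate 1 (log2 fold change −0.39 ± 0.12).

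Thus 7 of the 10 genes passed as higher in Y665F than in WT spleens, where 5.63% of 19418 genes did so. The median log2 fold change of the 10 genes was 0.67, and that of all genes was −0.0043. None was called. In Y665H spleens 6 of the 10 genes passed as lower than WT, with 9.05% of all genes, and their median was −0.50 against 0.00050 for all genes. With the replicate number as a block, which did not pair the spleen libraries, Cd3d and Lat no longer passed in Y665F spleens (adjusted p = 0.0801 and 0.0671), where 2.3% of all genes passed in either direction with the block.

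Between the mutants, all 10 genes were higher in Y665F than in Y665H spleens with an adjusted p under 0.05, where 10.5% of all genes passed in this direction. Among them 7 were called, with 1.27% of all genes called as higher. The log2 fold changes were 1.75 ± 0.12 (SE) for Cd8b1, 1.44 ± 0.11 for Cd3e and 1.39 ± 0.09 for Cd8a at the upper end and 0.60 ± 0.11 for Cd4 at the lower end. Cd247 at 0.90 and Lat at 0.93 were the other genes that passed without being called. The libraries of the mutants overlapped for Cd4 and Cd247 and for no other of these genes, a description for which the share of all genes is not given. Both comparisons with WT use the same WT libraries. Without Y665F replicate 5, 4 genes were called, and without Y665H replicate 1, 9 were. The numbers of all genes called in these fits are not given here.

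The balance of CD8 to CD4 transcripts was lower in Y665H spleens than in WT spleens and did not depend on the scaling between libraries, since each ratio is taken within a library. Cd8b1 reads were 0.473 ± 0.0318 (SD, n = 4) of Cd4 reads in WT, 0.288 ± 0.0115 (SD, n = 5) in Y665H and 0.645 ± 0.106 (SD, n = 7) in Y665F spleens. The Y665H ratios, 0.273 to 0.302, were separate from the WT ratios, 0.432 to 0.504, and lay closer together than those of the other spleen groups. The Y665F ratios ran from 0.500 to 0.752 and met the upper end of WT. Exact two-sided permutation tests, adjusted over 14 tests of ratios, gave p = 0.0278 for Y665H against WT (log2 difference −0.71 ± 0.06 (SE)), p = 0.0339 for Y665F against WT (0.43 ± 0.11) and p = 0.00884 for Y665F against Y665H (1.14 ± 0.10). The difference between Y665F and WT missed the threshold in 8 of 11 fits without 1 library, at an adjusted p of 0.05 to 0.0875.

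Cd8a reads were 1.03 ± 0.0245 (SD, n = 4) times Cd4 reads in WT, 0.691 ± 0.108 (SD, n = 5) times in Y665H and 1.19 ± 0.1996 (SD, n = 7) times in Y665F spleens. The Y665H ratios of 0.557 to 0.802 lay below the WT ratios of 1.00 to 1.05, which lay within the Y665F range of 0.982 to 1.47. The exact permutation tests gave an adjusted p of 0.0278 for Y665H against WT (log2 difference −0.60 ± 0.11 (SE)), of 0.216 for Y665F against WT (0.19 ± 0.09) and of 0.00884 for Y665F against Y665H (0.78 ± 0.14). Before adjustment, p was the smallest the design allows for both ratios in Y665H against WT (0.00794) and in Y665F against Y665H (0.00126). In each fit without 1 library, both ratios of Y665H against WT had an adjusted p of 0.05 to 0.0571. The smallest possible p is larger in such a fit, 0.0286 before adjustment for 4 against 4 libraries. The adjusted p of these fits therefore cannot tell whether the difference rests on 1 library. The log2 difference itself stayed between −0.65 and −0.52 for Cd8a and between −0.76 and −0.68 for Cd8b1, whichever library was left out. Without Y665H replicate 1 the differences from WT were −0.69 for Cd8b1 and −0.52 for Cd8a. Dendritic cells are a further source of Cd8a reads, and the 6 markers listed for them are not limited to the class that makes Cd8a. These markers summed to 409 to 428 CPM in WT, 244 to 349.6 CPM in Y665H and 355 to 393 CPM in Y665F spleens. Of these 6 genes, 5 fell in Y665H spleens and 2 in Y665F spleens, and their part in the Cd8a level was not tested.

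**Figure D2:**
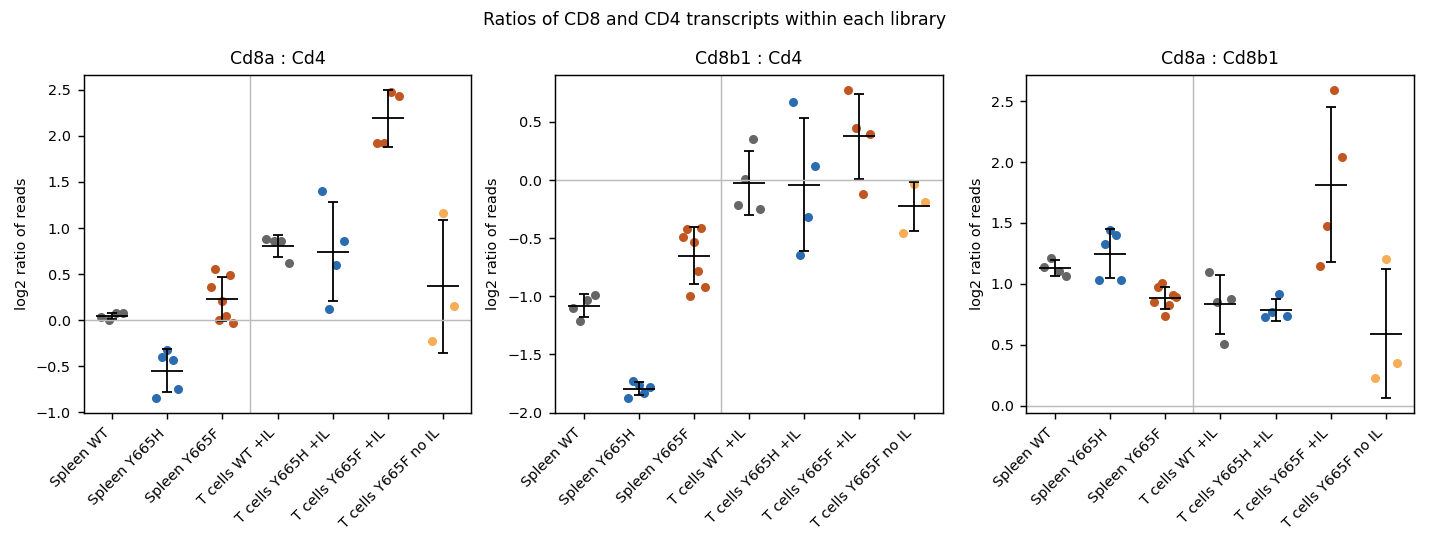
Log2 ratios of Cd8a to Cd4 reads, Cd8b1 to Cd4 reads and Cd8a to Cd8b1 reads in each library of spleens and of splenic T cells with or without IL-2 and IL-7 (+IL and no IL), with the mean and SD of each group in black. The Y665H spleens lie below the WT spleens in both ratios to Cd4, and the Y665F T cells with interleukins lie above all other T cells in the ratio of Cd8a to Cd4.

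Relative to the CD3 genes, Cd4 was higher and both CD8 genes were lower in Y665H than in WT spleens. This is a description without a test, the log2 level of a gene minus the mean log2 level of Cd3d, Cd3e and Cd3g in the same library. Cd4 relative to CD3 was 0.29 higher in Y665H and 0.28 lower in Y665F spleens than in WT spleens, with no overlap between any 2 genotypes. Cd8b1 relative to CD3 was 0.42 lower in Y665H spleens, without overlap, and 0.15 higher in Y665F spleens, with overlap. With Cd3e alone as the reference the Cd8b1 value of Y665F spleens was −0.10, so that its direction depends on the reference. Cd8a relative to CD3 was 0.30 lower in Y665H spleens, without overlap, and differed by −0.10 in Y665F spleens, with overlap. Lck, Zap70 and Lat relative to CD3 were 0.29, 0.48 and 0.38 higher in Y665H spleens, and the libraries overlapped with WT for each. In Y665F spleens the same 3 genes differed from WT by 0.17, 0.38 and 0.13, also with overlap, and with Cd3e alone as the reference by −0.074, 0.14 and −0.11.

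Markers of other cells also differed between the spleens. Of the 6 B cell genes 2 fell in each mutant. Neutrophil markers passed as higher for 3 of 5 measured genes in Y665F and for 5 of 5 in Y665H spleens, and 3 of 5 measured erythroid genes were higher in Y665H spleens. Of 4 measured natural killer cell genes 1 fell in Y665F and 3 fell in Y665H spleens. Macrophage markers fell for 1 of 5 genes in Y665F spleens and for none in Y665H spleens, and plasma cell markers rose for 3 of 4 genes in Y665H spleens and for none in Y665F spleens. Sox13, the only gene measured of the γδ T cell list, did not pass in either. It was at 3.75 to 9.49 CPM in spleens and at 0 to 1.46 CPM in splenic T cells, and is not taken as a measure of γδ T cells. The part of these other cells in the levels of the CD3 and coreceptor genes was not tested.

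Other genes of the receptor pathway were taken from a list of 41, of which 38 were tested. Of these, 15 (39.5%) passed as higher and none as lower in Y665F spleens, with a median log2 fold change of 0.24, where 5.63% of all genes passed as higher and 6.59% as lower. In Y665H spleens 23 (60.5%) passed as lower and none as higher, with a median of −0.31, where 9.05% of all genes passed as lower and 10.7% as higher. Cd6, a costimulatory receptor, rose from 36.3 ± 4.51 CPM (SD, n = 4) in WT to 66.2 ± 10.7 CPM (SD, n = 7) in Y665F spleens (log2 fold change 0.87 ± 0.17 (SE), adjusted p = 0.00327), and Ubash3a, which restrains receptor signaling, rose from 28.6 to 47.98 CPM (0.75 ± 0.08). In Y665H spleens Themis, an adaptor needed in thymocyte development, fell from 100.4 ± 14.4 CPM (SD, n = 4) to 56.3 ± 8.96 CPM (SD, n = 5; −0.83 ± 0.12, adjusted p = 0.000974), and the kinase gene Txk fell by 0.75. Between the mutants 29 of the 38 genes (76.3%) were higher in Y665F spleens and none lower, among them Themis (1.17 ± 0.11), where 10.5% of all genes passed as higher and 15.3% as lower.

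Over the 16 spleen libraries, the genes outside the list of 10 whose log2 levels ran most closely with the mean of Cd3d, Cd3e and Cd3g included Skap1 (Pearson r = 0.994), Ppm1h (0.989), Prkcq (0.988) and Kbtbd11 (0.988). After the means of the genotypes were removed, the r of these 4 genes ranged from 0.8999 to 0.963. Those closest to Cd8a were D16Ertd472e, Lrrc75b, Il18r1, Ms4a4b and Arl4c, with r between 0.978 and 0.980, and Cd8b1 had an r of 0.985 with Cd8a. Those closest to Cd4 were Cacna2d4, Mreg, Tcf7, Dgka and Dzip1, with r between 0.958 and 0.983. Cd4 and Cd8a had an r of 0.835 with each other, and of 0.402 within genotypes. These values describe 16 libraries that share the difference between genotypes and the makeup of the spleen.

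In splenic T cells cultured with IL-2 and IL-7, Cd4 was the only one of the 10 genes that passed between Y665F and WT. Cd4 was at 302, 347, 372 and 369.6 CPM in WT cells and at 218, 206, 79.0 and 117 CPM in Y665F cells, without overlap. It fell by 1.16 ± 0.28 (SE) on the log2 scale (adjusted p = 0.0290) and was called. As background, 0.614% of 22313 genes passed as lower and 0.381% were called as lower. The call was lost in 5 of 8 fits without 1 library, of which 3 left out WT replicate 2, 3 or 4 and 2 left out Y665F replicate 3 or 4. It was also lost when the 4 shallowest T cell libraries (Y665H replicates 1, 2 and 4 and Y665F replicate 3) were left out (log2 fold change −0.92 ± 0.25, adjusted p = 0.0679), a choice made after seeing the data, with the replicate number as a block (adjusted p = 0.0745, with 0.739% of all genes passing in either direction), and in a fit of these 2 groups alone.

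Cd8a was not lower in these Y665F cells, at 826, 782, 439.5 and 634 CPM against 556, 628, 674 and 570.2 CPM in WT cells (log2 fold change 0.14 ± 0.20 (SE), adjusted p = 0.703). Cd8b1 was at 373, 281, 72.9 and 154 CPM against 260.4, 349, 475 and 311 CPM (−0.66 ± 0.32, adjusted p = 0.245). Cd3e was at 171, 191, 77.5 and 149 CPM against 150.3, 141, 139 and 133 CPM (0.07 ± 0.20, adjusted p = 0.871). Replicate 3 was the lowest Y665F library for each of these genes. Cd3d at 216, 178, 63.4 and 101 CPM and Cd3g at 398, 307, 88.8 and 117 CPM fell into a higher and a lower pair of libraries in the Y665F group, and neither passed against WT (−0.84 ± 0.26 and −1.06 ± 0.33, adjusted p = 0.0959 and 0.0936). Lat was at 113, 108, 44.8 and 91.6 CPM in Y665F cells and at 114, 172, 279.7 and 155 CPM in WT cells, which did not overlap, with a difference of −1.01 ± 0.30 and an adjusted p of 0.0790. DESeq2 passed Cd3d, Cd3g and Lat besides Cd4 in this comparison, where it passed 1644 genes in all and edgeR 418. The differences of Cd247, Lck and Zap70 were −0.74, −0.75 and −0.51, and none passed.

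Libraries of these Y665F cells differed from WT in other ways. The summed level of 6 B cell markers was 660.3 CPM in Y665F replicate 3 and 180.1 CPM in replicate 4, 17.1 and 27.0 CPM in the other 2 and 10.04 to 85.2 CPM in WT cells. That of erythroid markers was 1076 and 84.4 CPM in the same 2 libraries, 6.53 and 14.9 CPM in the other 2 and 5.77 to 36.7 CPM in WT cells. Neutrophil markers summed to 65.1 to 259 CPM in Y665F and to 5.87 to 12.3 CPM in WT cells. Reads on no gene made up 57.0% to 78.2% of the reads in Y665F and 48.3% to 65.2% in WT libraries, as a share of the reads on genes, on no gene or ambiguous. The part of these in the difference in Cd4 was not tested. Without Y665F replicate 3, with replicate 4 kept, the log2 fold change of Cd4 was −0.95 ± 0.26 (SE, adjusted p = 0.0879). With the size factors of DESeq2's method the median log2 fold change of all genes moved from 0.07 to 0.21, and that of Cd4 from −1.16 to −1.06.

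**Figure D3:**
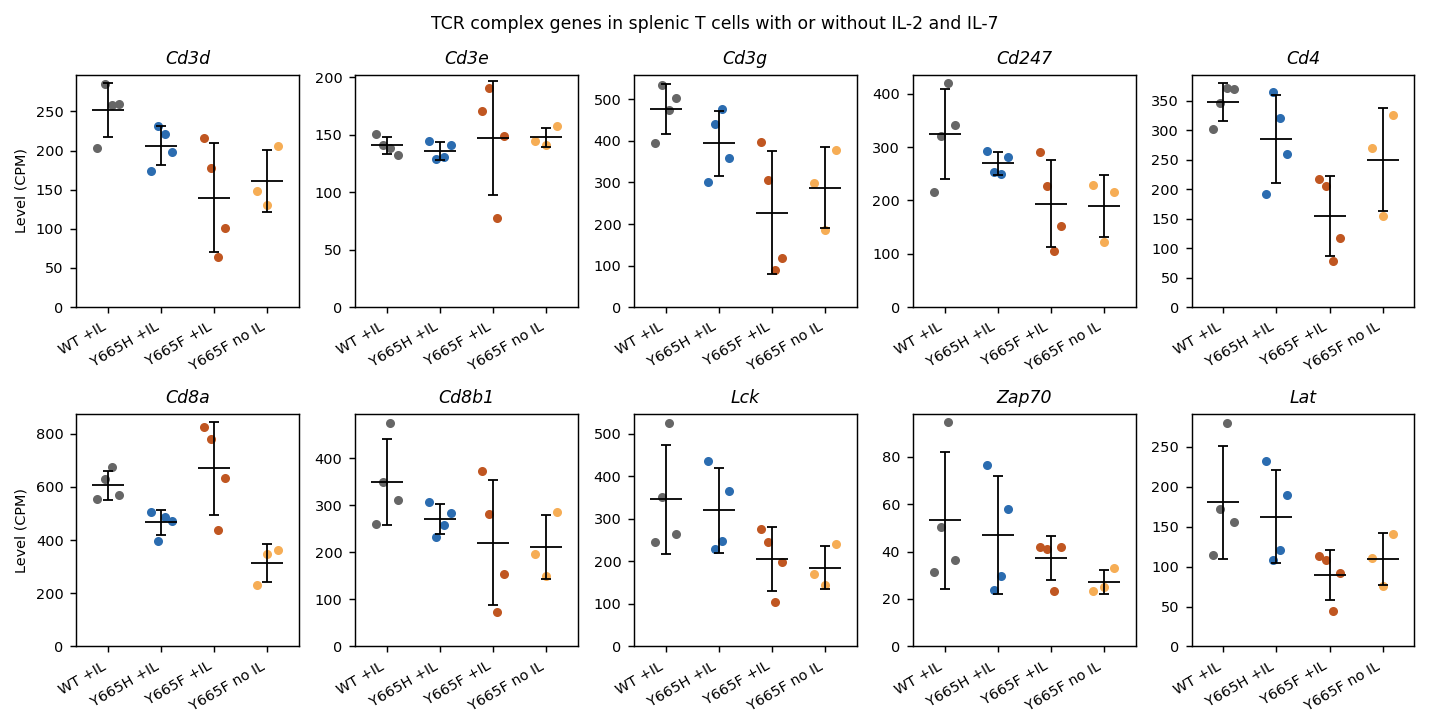
Levels of the 10 genes in CPM in each library of splenic T cells (points), with the mean and SD of each group in black (4 libraries per genotype with both interleukins, and 3 for Y665F without them). Cd4 and Lat of Y665F cells with interleukins lie below all WT libraries, and Cd8a of these cells lies above all Y665F libraries without interleukins.

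Between Y665H and WT T cells with interleukins, none of the 10 genes passed, where 0.0762% of all genes passed in either direction; none had an unadjusted p under 0.05 and DESeq2 passed none. The differences lay between −0.38 and −0.05. Cd8a was at 508, 396, 488 and 474 CPM in Y665H cells, below all WT libraries (−0.38 ± 0.20 (SE), adjusted p = 0.596). Between Y665F and Y665H cells none passed in edgeR either, with 6.18% of all genes passing, and 6 had an unadjusted p under 0.05. DESeq2 passed 3 (Cd4, Cd8a and Lat), where it passed 2416 genes in all and edgeR 1379. The differences ran from −0.87 ± 0.27 for Cd4 (adjusted p = 0.0604) to 0.52 ± 0.20 for Cd8a (adjusted p = 0.129). Cd4 and Cd8a both passed in that comparison with the size factors of DESeq2's method (adjusted p = 0.0391 and 0.0343), where 1676 genes passed in all. The counts behind these values were low in 3 Y665H libraries and Y665F replicate 3, down to 49 reads of Zap70.

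Cd8a was higher in Y665F T cells that received IL-2 and IL-7 than in those that did not. It was at 232, 346 and 363 CPM without interleukins and at 439.5 to 826 CPM with them, without overlap. Cd8a rose by 1.10 ± 0.22 (SE, adjusted p = 0.00362) and was the only one of the 10 genes that passed or was called, where 2.94% of all genes passed and 2.27% were called as higher. Without the library of replicate 1 that received no interleukin, the rise was 0.89 ± 0.24 and missed the threshold (adjusted p = 0.0657), and with the size factors of DESeq2's method it was 0.95 ± 0.17, which passed without being called, while the median of all genes moved from −0.131 to −0.275. Without the library of replicate 1 that received them, Cd8a passed without being called. Cd8b1 was at 197, 151 and 285 CPM without interleukins and differed by 0.07 ± 0.35 (adjusted p = 0.939). Cd4 was at 271, 154 and 326 CPM without them and differed by −0.69 ± 0.29 (adjusted p = 0.229). The remaining 7 genes had log2 fold changes between −0.33 and 0.46. WT and Y665H cells without interleukins were not analysed here, and culture and interleukins cannot be told apart in this comparison. Natural killer cell markers rose for 2 of 3 genes measured, from summed levels of 17.7 to 25.8 CPM to 62.1 to 91.3 CPM. Plasma cell markers rose for 1 of 4 genes, from summed levels of 62.1 to 70.9 CPM to 168 to 207 CPM. The part of either list in the Cd8a level was not tested.

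The ratio of Cd8a to Cd4 reads was 4.64 ± 0.982 (SD, n = 4) in Y665F T cells with interleukins, 1.75 ± 0.140 (SD, n = 4) in WT and 1.76 ± 0.654 (SD, n = 4) in Y665H cells, and 1.41 ± 0.740 (SD, n = 3) in Y665F cells without interleukins. The lowest ratio of the first group, 3.79, lay above the highest of the others, 2.63. The folds were 2.61 over WT, 2.72 over Y665H and 3.54 over Y665F cells without interleukins. Each gave p = 0.0286 in the exact two-sided permutation test, the smallest these group sizes allow, and an adjusted p of 0.05, which is not under the threshold. The ratio of Cd8b1 to Cd4 reads was 1.33 ± 0.323 (SD, n = 4) in Y665F cells with interleukins, 0.997 ± 0.201 (SD, n = 4) in WT, 1.03 ± 0.419 (SD, n = 4) in Y665H and 0.861 ± 0.125 (SD, n = 3) in Y665F cells without them. The groups overlapped in each comparison, and the exact permutation tests gave adjusted p between 0.133 and 0.971. Cd8a reads were 2.22 to 6.03 times Cd8b1 reads in Y665F cells with interleukins, 1.42 to 2.14 times in WT, 1.65 to 1.88 times in Y665H and 1.17 to 2.30 times in Y665F cells without interleukins. The highest values of that ratio, of replicates 3 and 4, came from the libraries with the most B cell and erythroid transcripts, whose part in the ratio was not tested.

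Of the 38 other genes of the pathway, 1 (2.63%) passed as higher and 2 (5.26%) as lower in Y665F against WT T cells, where 1.26% and 0.614% of all genes did so. Cblb, a ubiquitin ligase that restrains receptor signaling, rose from 230.4 ± 89.6 to 452 ± 97.9 CPM (SD, n = 4 each; log2 fold change 0.97 ± 0.23 (SE)). Trat1, an adaptor that associates with the receptor, fell from 72.4 ± 5.44 to 26.4 ± 13.5 CPM (−1.44 ± 0.26), and Cd28, the main costimulatory receptor, fell from 264 ± 69.4 to 118 ± 53.8 CPM (−1.16 ± 0.29). None passed in Y665H cells. Against Y665H cells, 2 passed as higher (Cblb and Fyb) and 4 as lower in Y665F cells, Cd28 by 1.53 and Trat1 by 1.48. These are 5.26% and 10.5% of the list, beside 4% and 2.18% of all genes. With interleukins, 2 genes passed as higher and 2 as lower than without, 5.26% of the list in each direction beside 2.94% and 0.91% of all genes. They were Rasgrp1 (1.04 ± 0.21), which activates RAS, and Txk (0.87 ± 0.21), and Cd28 (−1.54 ± 0.31) and Ubash3b (−0.89 ± 0.22).

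In the sorted CD4+ T cells Cd4 was abundant and Cd8a was close to absent. Cd4 was at 633 to 1184 CPM in the 30 libraries and Cd8a was counted with 0 to 15 reads per library, at or near the floor of counting, so no fold change is given for Cd8a there. Cd8b1 was low but well counted, at 5.69 to 20.4 CPM and 118 to 886 reads per library. Per kilobase of exon, Cd8b1 was at 4.78 ± 0.567 CPM (SD, n = 3) in WT cells with the empty vector, against 233.6 ± 25.0 CPM for Cd4, 207.3 ± 17.7 CPM for Cd3d and 76.2 ± 7.03 CPM for Cd3e.

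Stat5a/b-null cells held more Cd3d, Cd3e, Cd3g and Cd8b1 transcript than WT cells when both carried the empty vector. Cd8b1 was at 20.1, 15.1 and 17.2 CPM in null and at 7.53, 7.62 and 6.12 CPM in WT cells, without overlap. Cd8b1 rose by 1.30 ± 0.20 (SE, adjusted p = 6.22e-05) and was the only 1 of the 10 genes called, where 2.55% of 21975 genes were called as higher. Cd3e was at 412, 511 and 468 CPM in null and at 280.1, 316 and 337 CPM in WT cells (0.58 ± 0.13, adjusted p = 0.00367). Cd3d was at 609, 508 and 468 CPM against 356, 413 and 359.9 CPM (0.49 ± 0.13, adjusted p = 0.0104), and Cd3g was at 703, 577 and 536 CPM against 432, 447 and 418 CPM (0.49 ± 0.14, adjusted p = 0.0208). The groups were separate for each of these 4 genes, and also for Zap70, which did not pass. Separation of 3 against 3 libraries is a description here, and the share of all genes that separated is not given. The 4 genes passed where 6.83% of all genes did as higher. Cd3d missed the threshold without null or WT replicate 1, and Cd3g without null replicate 1 or any WT library. The other genes had differences of 0.12 for Cd247, 0.25 for Cd4, −0.01 for Lck, 0.40 for Zap70 and −0.15 for Lat and did not pass, and the median of all genes was −0.12.

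The CD3 genes, Cd247 and Zap70 were lower in null cells that carried N642H or Y665F than in those with the empty vector. With N642H, Cd3d was at 303, 322 and 378 CPM against 609, 508 and 468 CPM with the empty vector (−0.70 ± 0.13 (SE), adjusted p = 0.00166). Zap70 was at 411, 416 and 399 CPM against 601, 628 and 516 CPM (−0.55 ± 0.11, adjusted p = 0.00288). Neither gene overlapped between the vectors. Cd3e fell by 0.51, Cd3g by 0.64, Cd247 by 0.57 and Cd8b1 by 0.70, so that 6 of the 10 genes passed as lower, with 5.97% of 20113 genes. With Y665F, Cd3d was at 324, 316 and 408 CPM (−0.62 ± 0.13, adjusted p = 0.00455) and Zap70 at 461, 425 and 472 CPM (−0.39 ± 0.11, adjusted p = 0.0276). Cd3e fell by 0.49, Cd3g by 0.61 and Cd247 by 0.48, which made 5 of the 10 genes, with 4.42% of all genes passing as lower. None was called with either vector.

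Same-numbered libraries of the null cells deviated together, so the replicate number was also used as a block. With the block, Cd4 and Lck passed as well with N642H (adjusted p = 0.0193 and 0.0222) and Cd8b1 passed with Y665F (adjusted p = 0.0054). With the block 20.5% of all genes passed with N642H and 18.4% with Y665F in either direction. Without the block, some calls were lost when 1 library was left out. With N642H, Cd3e missed the threshold without empty vector replicate 2 or N642H replicate 1, Cd247 without N642H replicate 1, and Cd8b1 in 5 of 6 fits without 1 library. With Y665F, Cd3e missed it without empty vector replicate 2 or Y665F replicate 1, Cd3g without empty vector replicate 1 or Y665F replicate 2, and Cd247 and Zap70 in 4 of 6 fits each.

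STAT5B and Y665H gave no gene that passed in null cells without the block. With STAT5B, where 1.52% of all genes passed in either direction, 4 of the 10 genes had an unadjusted p under 0.05 and DESeq2 passed 1 of them. In all, DESeq2 passed 1411 genes with STAT5B, against 305 in edgeR. Cd3d was at 349, 431 and 434 CPM and Cd8b1 at 13.1, 10.9 and 11.8 CPM, both below all libraries of the empty vector (−0.39 ± 0.13 (SE) and −0.56 ± 0.20, adjusted p = 0.129 and 0.187). With the block Cd3d, Cd3g and Cd8b1 passed (adjusted p = 0.0243, 0.0423 and 0.0132), where 9.5% of all genes did so. With Y665H, where 0.0249% of all genes passed, none had an unadjusted p under 0.05 and DESeq2 passed none. The differences lay between −0.10 for Cd4 and 0.13 for Cd3e apart from Cd8a, and Cd3d was at 543, 489 and 544 CPM, within the range of the empty vector. Lat, the adaptor, differed by 0.05 to 0.15 from the empty vector with the 4 constructs and passed with none.

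**Figure D4:**
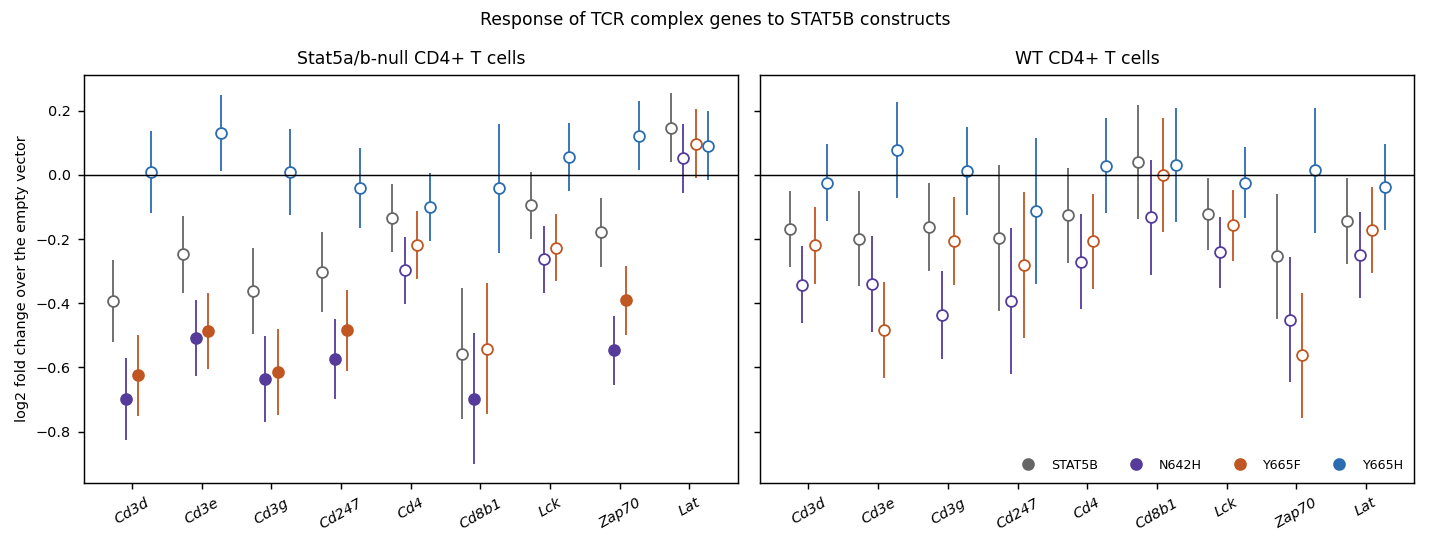
Log2 fold changes of 9 of the genes over the empty vector with each STAT5B construct in Stat5a/b-null and WT CD4+ T cells, with bars for the standard error. Filled points passed at an adjusted p under 0.05 in fits without the replicate number as a block, and open points did not. Cd8a is left out because it was counted with 0 to 15 reads. The filled points are 6 genes with N642H and 5 with Y665F in null cells, all below 0. With the block, 8 genes passed with N642H, 6 with Y665F and 3 with STAT5B in null cells, beside 20.5%, 18.4% and 9.5% of all genes. In WT cells 4 passed with N642H and 2 with Y665F, beside 8.28% and 12% of all genes.

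In WT cells none of the 10 genes passed with any construct in edgeR without the replicate number as a block. An unadjusted p under 0.05 was found for 5 genes with N642H, for 2 with Y665F and for none with STAT5B or Y665H. DESeq2 passed Cd3g with N642H and Cd3e with Y665F. In all, DESeq2 passed 789 genes with N642H and 980 with Y665F, against 312 and 258 in edgeR. The share of all genes that passed in either direction in edgeR was 1.52% for N642H and 1.26% for Y665F, but 0.00975% for STAT5B and 0.00488% for Y665H. Cd3e was at 219, 179.8 and 262 CPM with Y665F and at 280.1, 316 and 337 CPM with the empty vector (−0.48 ± 0.15 (SE), adjusted p = 0.134), and Zap70 was at 248, 253 and 386 CPM against 352, 495 and 477 CPM (−0.56 ± 0.19, adjusted p = 0.187). With N642H the differences were −0.44 ± 0.14 for Cd3g and −0.34 ± 0.12 for Cd3d. With the replicate number as a block, Cd3e, Cd3g, Cd247 and Zap70 passed as lower with N642H (adjusted p between 0.00993 and 0.0385), and Cd3e and Zap70 passed as lower with Y665F (adjusted p = 0.00271 and 0.00128). With the block 8.28% of all genes passed with N642H and 12% with Y665F in either direction. Without replicate 3 of N642H or of Y665F and without the block, Cd3g passed with N642H, and Cd3e and Zap70 passed with Y665F.

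The response in null cells was set against that in WT cells by an interaction term. None of the 10 genes passed for any of the 4 constructs, where 0.105% of 21975 genes passed for STAT5B, 0.387% for N642H, 0.478% for Y665F and 0.00455% for Y665H, and 1 of the 10 had an unadjusted p under 0.05, with N642H. A fall that passed in null cells and not in WT cells is therefore not shown to differ between them.

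Of the 38 other pathway genes, 3 (7.89%) passed as higher and 16 (42.1%) as lower with N642H in null cells, where 5.67% and 5.97% of all genes did so. With Y665F 3 passed as higher and 12 (31.6%) as lower, beside 5.16% and 4.42% of all genes. Malt1, a scaffold of the pathway to NF-κB, rose by 1.05 with each construct, while the inhibitory adaptor gene Lax1 fell by 1.30 and 1.32. Ptpn22, a phosphatase that acts on LCK, fell by 0.84 with N642H, and the adaptor gene Fyb fell by 0.78 with Y665F. With STAT5B Malt1 (0.67 ± 0.13 (SE)) and Lax1 (−0.70 ± 0.12) passed, beside 0.95% of all genes as higher and 0.567% as lower, and with Y665H none did. In WT cells 1 (2.63%) passed as higher and 3 (7.89%) as lower with N642H, beside 1% and 0.522% of all genes, namely Tec (1.88 ± 0.38) and, among those lower, Txk (−1.13 ± 0.23) and Fyb (−0.63 ± 0.12). Both Txk (−1.23 ± 0.24) and Fyb (−0.78 ± 0.12) fell with Y665F (5.26% of the list, beside 0.512% of all genes), and none passed with STAT5B or Y665H. Between null and WT cells with the empty vector 11 passed as higher, led by Trat1 (1.59 ± 0.45) and Lax1 (1.17 ± 0.28), and 7 as lower, led by Themis (−1.63 ± 0.45) and Grap2 (−1.29 ± 0.31). These are 28.9% and 18.4% of the list, beside 6.83% and 7.06% of all genes.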

How the data were processed

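RNA of 61 mouse libraries had been sequenced as paired ends after ribosomal depletion with a stranded total RNA kit. The authors deposited raw counts per gene and library. Per the labels and the study's methods, Trimmomatic 0.36, STAR, HTSeq 0.9.1 and the mm10 genome were used, with FastQC 0.11.9, SAMtools 1.9 and Picard 2.9.2 also named. The gene annotation and the strand setting of the counting are not given in the sources used here. The 5 closing lines of each file that name no gene were left out, and reads on no gene made up 10.6% to 78.2% of the reads. The extract protocol names a tissue that no sample label names, and was not used to describe the samples.

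Groups came from the labels. In R 4.3.3, edgeR 4.0.16 (quasi-likelihood test, TMM) was fitted to genes with at least 10 reads over a fit's libraries, separately for spleens, splenic T cells, null CD4+, WT CD4+ and all CD4+ cells, with Benjamini-Hochberg adjustment over all genes. The scripts were tested on simulated data. The shares of all genes with an unadjusted p under 0.05, or with libraries that do not overlap, are not given here. CPM values were scaled within spleens, within splenic T cells and within all CD4+ libraries, so levels are not compared between these materials. Ratios of reads within a library were tested on the log2 scale by exact two-sided permutation tests. Genes like a reference were ranked by Pearson r of log2(CPM + 1) among genes that averaged 1 CPM or more. Of the pathway list, each comparison names at most 2 genes that rose and 2 that fell, those that moved furthest among the ones that passed and averaged 1 CPM or more. Values of 1 gene that these rules name are not reported here. Members and lists were chosen with earlier results of these data known, so they carry no independent support.

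Same-numbered libraries deviated together in 30 of 30 pairs of groups in null CD4+ cells (correlation over 0.1), in 29 of 30 in WT CD4+ cells, in 6 of 21 in splenic T cells and in 4 of 13 in spleens. The median correlation was 0.464 in null and 0.673 in WT CD4+ cells. The replicate number was taken to pair the null CD4+ libraries alone, where every pair deviated together, from the data and not from a label. The fits of WT CD4+ cells without the block also leave out deviations that same-numbered libraries shared. Counts and figures of both backgrounds are from fits without the block unless the block is named. Alternatives were DESeq2 1.42.0, its size factors in edgeR, 2 other filters, the replicate block, the compared groups alone, each library left out and, added after seeing the data, the 4 shallowest splenic T cell libraries left out.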

Additional observations from a re-analysis of the deposited data

Results flagged for a closer look

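In a group of 4 to 10 libraries, a library was singled out when its gap to the nearest other library exceeded Dixon's critical value for the group's range. This was so in 7 of 78 sets of values, a set being 1 gene or ratio in 1 group. The sets share libraries and are not independent, so 7 of 78 is not compared with the 1 in 20 that chance gives.

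Y665H spleen replicate 1 accounted for 5 of these 7 sets, each time as the highest of the 5 Y665H spleens. It had 36.6 CPM of Cd3d against 24.5 to 27.3 CPM in the others, and 57.71 CPM of Cd3g against 42.5 to 46.8 CPM. Its Cd4 level was 129.7 CPM against 80.0 to 93.3 CPM, its Cd8b1 level 35.35 CPM against 23.6 to 26.2 CPM, and its Lck level 104.7 CPM against 67.7 to 76.0 CPM. The same library had the fewest erythroid and neutrophil transcripts of its group, as described above. Its ratio of Cd8b1 to Cd4 reads, 0.273, was the lowest of the Y665H spleens, whose ratios reached 0.302.

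Zap70 was at 23.18 CPM in Y665F T cell replicate 3 with interleukins, against 41.2 to 42.1 CPM in the other 3 libraries, and this library was among the 4 shallowest of the splenic T cells. The ratio of Cd8a to Cd4 reads was 1.543 in WT T cell replicate 4, against 1.81 to 1.84 in the other 3.

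Lat went opposite ways between Y665F and WT in the 2 materials. Every Y665F spleen was above every WT spleen, while every Y665F library of cultured T cells was below every WT library. The log2 ratio of the mean levels was 0.7304 in spleens and −1.015 in cultured T cells. The difference in T cells did not pass, as given above. Its highest Y665F library, at 112.7 CPM, lay just under the lowest WT library, at 114.3 CPM. The difference between the materials was not tested.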

How the results depend on the processing

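No result that passed or was called turned its direction under the alternatives run. Among results across the 10 genes, the following counts moved. With the replicate number as a block, 1 gene was called in Y665H against WT spleens, none was called or passed in Y665F against WT T cells, 3 genes passed with STAT5B in null cells, and 4 with N642H and 2 with Y665F in WT cells. In that comparison of Y665H and WT spleens 647 genes were called in all with the block, against 848 without it. The block left 5 of the 7 genes that passed in Y665F against WT spleens and 8 genes with N642H in null cells. Of these libraries only the null CD4+ cells were taken as paired, although same-numbered WT CD4+ libraries deviated together in 29 of 30 pairs. With DESeq2, 4 genes passed in Y665F against WT T cells, 3 in Y665F against Y665H T cells, 2 between interleukins and none, and 1 each with STAT5B in null cells and with N642H and Y665F in WT cells. DESeq2 passed more genes in all in each of these comparisons. In the T cells these were 1644, 2416 and 1483 genes, against 418, 1379 and 858 in edgeR. In the CD4+ cells they were 1411, 789 and 980, against 305, 312 and 258. In Y665F against Y665H T cells, 2 passed with DESeq2's size factors in edgeR and 2 with the filterByExpr filter, where 1676 and 1859 genes passed in all. Cd8a was no longer called between interleukins and none (0 genes) with DESeq2, its size factors or filterByExpr. With the compared groups alone, 0 genes were called or passed in Y665F against WT T cells, 2 passed with Y665F in null cells and 2 in null against WT cells. Of all genes 206, 1513 and 2363 passed in these fits, against 418, 1927 and 3052 in the fits of all groups. Without the 4 shallowest libraries, 0 were called or passed in Y665F against WT T cells, where 263 genes passed in all. In each of these cases the cause was not tested.

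When 1 library was left out in turn, genes called ranged from 0 to 1 in Y665F against WT spleens and in Y665H against WT spleens and from 4 to 9 in Y665F against Y665H spleens. In T cells they ranged from 0 to 3 in Y665F against WT, from 0 to 2 in Y665F against Y665H and from 0 to 1 between interleukins and none, and genes that passed ranged from 0 to 4, 0 to 2 and 0 to 1. In CD4+ cells, genes that passed ranged from 3 to 5 with N642H and 2 to 6 with Y665F in null cells, from 0 to 1 with N642H and 0 to 2 with Y665F in WT cells, and from 2 to 4 in null against WT cells. The log2 difference of the Cd8a to Cd4 ratio ranged from −0.65 to −0.52 in Y665H against WT spleens and from −0.28 to 0.15 in the same comparison of T cells. That of the Cd8b1 to Cd4 ratio ranged from −0.76 to −0.68, from −0.25 to 0.19, and from 0.39 to 0.49 in Y665F against WT spleens, where it missed the threshold in 8 of 11 cases. In Y665H against WT spleens both ratios had an adjusted p of 0.05 to 0.0571 in each fit without 1 library. In such a fit the smallest possible p is larger than with all libraries.

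With Cd3e alone in place of the mean of 3 CD3 genes as the reference, the levels relative to CD3 moved by more than the spread between libraries. In Y665F against WT spleens they were −0.46 for Cd247, −0.53 for Cd4, −0.34 for Cd8a and −0.10 for Cd8b1. In Y665F against Y665H spleens they were −0.57 for Cd247, −0.85 for Cd4, −0.067 for Cd8a, 0.30 for Cd8b1, −0.39 for Lck, −0.36 for Zap70 and −0.52 for Lat. In Y665F against WT T cells they were −0.79 for Cd247, −1.26 for Cd4, 0.12 for Cd8a, −0.86 for Cd8b1, −0.76 for Lck, −0.41 for Zap70 and −1.01 for Lat. In Y665F against Y665H T cells they were −0.61 for Cd247, −0.99 for Cd4, 0.45 for Cd8a, −0.58 for Cd8b1 and −0.71 for Lck. Depth limits the T cells most, where 4 libraries were shallow enough to be left out in an alternative.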
